A study of Mus musculus with 6 samples.

Results

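The heat shock proteins described here are 10 genes: the cytosolic chaperones Hspa1a, Hspa1b, Hspa8, Hsph1, Dnajb1, Hsp90aa1 and Hspb1, the mitochondrial chaperonins Hspd1 and Hspe1, and the transcription factor gene Hsf1. They were chosen by name, with earlier results of these data known, and their array probes were those whose RefSeq transcript belongs to one of them. All 10 had at least 1 probe, 19 probes in all, and all 10 were tested among 32456 genes and unnamed probes. Each was represented by its brightest probe, which was well above background on all 6 arrays. Heat shock proteins hold unfolded or newly made proteins and help them fold. In a resting cell HSP70 and HSP90 keep the factor HSF1 inactive; when unfolded proteins engage these chaperones, HSF1 is released, binds heat shock elements in DNA and switches on the inducible members. Fever and oxidants are known triggers of this response.

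The data are from whole lung of 6 male C57BL6 mice aged 10 weeks, 1 one-colour Agilent array per mouse. Every mouse was starved for 16 h, received lipopolysaccharide (LPS, bacterial endotoxin) into the peritoneum at 20 mg/kg, and was sampled 30 h after it. At 3 h and 24 h after LPS, 3 mice received saline and 3 received recombinant anti-thrombin, the plasma inhibitor of thrombin, at 750 IU/kg. No mouse without LPS was analysed here, so each value sets antithrombin against saline under endotoxin, and none shows what LPS itself did. The arrays had 69.9% to 72.1% of probes well above background and no saturated spot. All 8 markers of surfactant-making alveolar type 2 cells, which define lung tissue, were measured. Saline mouse 2 stood nearer to the antithrombin mice than the other saline mice did: on the first principal component, with 51.9% of the variance, it lay at 7.86, saline mice 1 and 3 at -48.3 and -62.4, and the antithrombin mice between 24.9 and 49.5.

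Of the 10 heat shock genes, 9 had higher mean signal after antithrombin and 1, Hspb1, lower. For Hspa1a, Hspa1b, Hsph1, Hspd1 and Hspe1 every antithrombin mouse lay above every saline mouse, by 1.27-fold to 1.79-fold in the means. For Hspb1 every antithrombin mouse lay below, at 0.665 times the saline mean. Hspa8, Dnajb1, Hsp90aa1 and Hsf1 overlapped between the groups. None of the 10 passed a threshold of 0.05 after adjustment over all genes (limma, adjusted p between 0.157 and 0.797), a threshold that 0.00616% of all genes passed. At an unadjusted p under 0.05 there were 6 (limma), 5 higher and 1 lower, against 21.6% of all genes, 8.73% higher and 12.9% lower. The groups did not overlap in the same 6 genes, against 28.8% of all genes, 10.7% higher and 18.1% lower. Signal level bears on this background: among the brightest decile of tested genes, which held Hspa8, Dnajb1, Hsp90aa1, Hspb1, Hspd1 and Hspe1, 11.8% had such a p and 26.5% did not overlap. Of those 6 members, 3 did so by either measure. The median log2 difference over the 10 was 0.34, and over all genes tested it was -0.05. In whole lung, fewer cells of a type and less RNA per cell cannot be told apart.

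The counts depended on single mice, among the members as over all genes. The 6 members at an unadjusted p under 0.05 became 2 without saline mouse 1, 2 without saline mouse 3 and 3 without antithrombin mouse 3 (limma). In the same analyses the share of all genes at such a p went from 21.6% to 14.6%, 13.0% and 13.6%. Without saline mouse 2 there were 7 members, against 31.8% of all genes, and 2 members passed the adjusted threshold, Hsph1 (log2 difference 1.05, limma adjusted p = 0.035) and Hspb1 (-0.79, 0.0282). Without that mouse 10.5% of all genes passed that threshold.

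**Figure D1:**
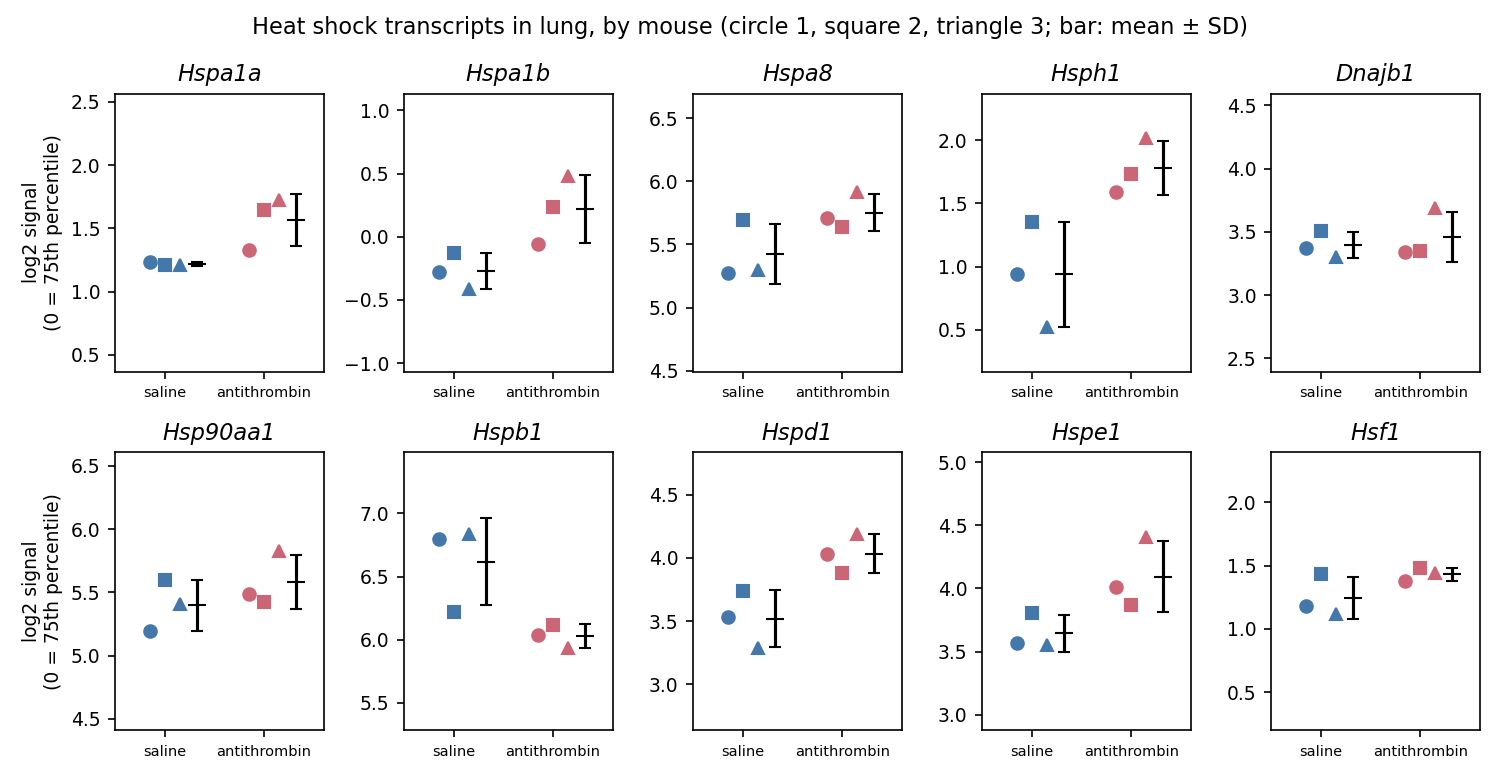
Log2 signal of each heat shock transcript in each mouse, where 0 is the 75th percentile of that array; every panel spans the same height, markers give the mouse number within its group, and bars give the mean ± SD of 3 mice. The groups do not overlap for Hspa1a, Hspa1b, Hsph1, Hspb1, Hspd1 and Hspe1.

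The inducible HSP70 genes come first by role. Hspa1a and Hspa1b encode nearly the same protein, the stress-inducible form of the HSP70 chaperone, from neighbouring genes. Their promoters are shown because the pair also shares its control region almost letter for letter. The lines give the 250 bases before each annotated start (RefSeq, GRCm38.p6), Hspa1a at chr17:34972157-34972406 and Hspa1b at chr17:34959239-34959488, both on the minus strand and read 5′ to 3′. Capitals mark GAANNTTC, a pair of opposed units of the heat shock element.
Hspa1a: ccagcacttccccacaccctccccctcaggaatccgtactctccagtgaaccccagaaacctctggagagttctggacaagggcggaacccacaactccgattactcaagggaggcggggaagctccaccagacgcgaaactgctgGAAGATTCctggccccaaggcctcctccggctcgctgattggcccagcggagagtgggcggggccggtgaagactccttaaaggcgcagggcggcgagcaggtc
Hspa1b: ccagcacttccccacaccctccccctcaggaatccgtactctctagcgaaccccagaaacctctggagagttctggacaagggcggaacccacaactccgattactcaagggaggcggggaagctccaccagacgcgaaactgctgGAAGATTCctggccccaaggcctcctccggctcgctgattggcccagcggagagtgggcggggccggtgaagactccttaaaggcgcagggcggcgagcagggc
Over these 250 bases 247 were identical, and the differences, counted from the first base shown with the Hspa1a base first, were C44T, T47C and T249G. Both held 1 match to GAANNTTC, from base -104 to base -97 relative to the start, and no match to the longer element of 3 units, which is GAANNTTC followed after 2 bases by GAA, or its reverse complement.

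Hspa1a, on a scale where 0 is the 75th percentile of the array and 1 unit is a doubling, had log2 signals of 1.24, 1.21 and 1.21 in saline mice 1, 2 and 3 and of 1.33, 1.65 and 1.72 in antithrombin mice 1, 2 and 3. The saline mice lay close together and the antithrombin mice spread out above them, with antithrombin mouse 1 nearest. The log2 difference was 0.35 (SE 0.13, limma adjusted p = 0.204). Hspa1b stood at -0.28, -0.13 and -0.41 after saline and at -0.06, 0.24 and 0.48 after antithrombin. The order of the antithrombin mice was the same as for Hspa1a, and saline mouse 2 came closest to antithrombin mouse 1. Antithrombin minus saline came to 0.49 (SE 0.16, limma adjusted p = 0.181). For genes that encode nearly the same protein, a probe for one can take up signal of the other. Transcript and probe sequences were not compared here, so the 2 values are not separate measurements with certainty.

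Hspa8 encodes HSC70, the HSP70 form that cells make at all times. Its log2 signals were 5.28, 5.70 and 5.30 after saline and 5.71, 5.64 and 5.91 after antithrombin. Saline mouse 2 reached the antithrombin range, so the groups overlapped, and the log2 difference was 0.33 (95% interval -0.04 to 0.70, limma adjusted p = 0.263). The other 3 Hspa8 probes gave differences of 0.60, 0.63 and 0.38, and on the 0.60 and 0.63 probes the groups did not overlap. The brightest probe therefore gave the smallest difference of the 4. Hspa8 has many processed copies in the genome, and signal from them was not separated here.

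Hsph1 encodes HSP110, the large relative of HSP70 that exchanges its nucleotide, and it had the largest difference of the 10. Its log2 signals were 0.94, 1.35 and 0.52 in saline mice and 1.59, 1.73 and 2.01 in antithrombin mice. All antithrombin mice lay above all saline mice, with saline mouse 2 again the nearest. The log2 difference was 0.84 (SE 0.23, 95% interval 0.30 to 1.38), a 1.79-fold higher mean (limma adjusted p = 0.157). Its unadjusted p stayed under 0.05 in 18 of 18 alternative analyses, where the difference ran from 0.63 to 1.05. Another probe gave 0.78, also without overlap, and a dim probe, well above background on 3 of 6 arrays, gave 0.38. The line below gives the 250 bases before one of its annotated starts, chr5:149636337-149636586 on the minus strand (RefSeq, GRCm38.p6), shown because Hsph1 had that largest difference. Capitals mark TTCNNGAA, the same pair of units in the opposite order.
Hsph1: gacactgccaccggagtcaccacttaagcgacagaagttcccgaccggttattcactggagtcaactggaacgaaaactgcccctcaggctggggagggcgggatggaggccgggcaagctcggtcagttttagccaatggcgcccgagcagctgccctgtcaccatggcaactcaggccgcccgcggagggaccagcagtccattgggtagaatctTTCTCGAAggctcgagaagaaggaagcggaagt
This match ran from base -33 to base -26. A match to the reverse complement of the 3-unit element lay after the start, from base 36 to base 48.

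Dnajb1 encodes HSP40, the J-domain partner that brings substrates to HSP70 and starts its ATPase. Its log2 signals were 3.37, 3.50 and 3.30 after saline and 3.34, 3.35 and 3.68 after antithrombin, so antithrombin mice 1 and 2 sat inside the saline range. Dnajb1 differed by 0.06 log2 with a 95% interval of -0.26 to 0.39 (limma adjusted p = 0.797). It was -0.049 without antithrombin mouse 3, the 1 mouse above the saline range. Neither of its 2 promoter windows in the table held any of the searched elements.

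Hsp90aa1 encodes the inducible cytosolic HSP90, which holds kinases and steroid receptors, and HSF1 itself, in a poised state. Its log2 signals were 5.19, 5.60 and 5.41 after saline and 5.49, 5.43 and 5.83 after antithrombin, with overlap. Hsp90aa1 differed by 0.18 log2 (95% interval -0.20 to 0.56, limma adjusted p = 0.52), and its other probe gave 0.31. Hsf1, the gene of the factor, stood at 1.18, 1.43 and 1.12 after saline and at 1.38, 1.48 and 1.44 after antithrombin. The antithrombin mice lay close together, and saline mouse 2 fell among them. Hsf1 differed by 0.19 log2 (95% interval -0.10 to 0.48, limma adjusted p = 0.39). HSF1 is governed mostly at the protein level, by release from chaperones, trimer formation and phosphorylation, and arrays do not measure any of these.

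Hspd1 and Hspe1 encode HSP60 and HSP10, the barrel and the lid of the chaperonin that folds proteins inside mitochondria. The genes stand head to head and share the stretch of DNA between their starts. The line gives the 215 bases between an Hspd1 start and the Hspe1 start, chr1:55087933-55088147, plus strand in the direction of Hspe1 (RefSeq, GRCm38.p6), shown because 1 stretch serves both genes. Another annotated Hspd1 start lies on the far side of the Hspe1 start. Capitals mark overlapping matches to the 3-unit element and to its reverse complement.
Hspe1 and Hspd1: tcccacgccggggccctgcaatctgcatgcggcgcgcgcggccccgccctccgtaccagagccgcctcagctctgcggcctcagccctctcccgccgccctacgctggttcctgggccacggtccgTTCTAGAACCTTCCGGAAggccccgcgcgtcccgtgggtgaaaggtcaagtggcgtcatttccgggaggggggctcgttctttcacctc
Relative to the Hspe1 start the matches covered bases -89 to -72, and relative to this Hspd1 start, bases -144 to -127.

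Hspd1 had log2 signals of 3.53, 3.74 and 3.29 after saline and of 4.03, 3.88 and 4.18 after antithrombin. The groups did not overlap, and saline mouse 2 and antithrombin mouse 2 were the nearest to each other. The log2 difference was 0.51 (SE 0.15, limma adjusted p = 0.166), and the other probe gave 0.50, also without overlap. As for Hsph1, the unadjusted p stayed under 0.05 in 18 of 18 alternative analyses, against 12 of 18 for Hspa1a, 14 of 18 for Hspa1b and 13 of 18 for Hspe1. Hspe1 stood at 3.57, 3.81 and 3.55 after saline and at 4.01, 3.87 and 4.40 after antithrombin. Saline mouse 2 and antithrombin mouse 2 again bounded the gap, which was narrow. Hspe1 differed by 0.45 log2 (SE 0.17, limma adjusted p = 0.2), and the other probes gave 0.39, with overlap, and 0.54, without. It was 0.295 on the brightest probe without antithrombin mouse 3. The 2 chaperonin genes thus differed by 1.43-fold and 1.37-fold in the same direction.

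Hspb1 encodes HSP25, the mouse form of HSP27, a small heat shock protein that binds unfolding proteins without ATP and guards actin filaments. It was the 1 member with lower signal after antithrombin. Its log2 signals were 6.80, 6.22 and 6.84 in saline mice and 6.04, 6.12 and 5.93 in antithrombin mice. Saline mice 1 and 3 stood well above the rest, and saline mouse 2 was just above antithrombin mouse 2. Hspb1 differed by -0.59 log2 (SE 0.18, 95% interval -1.03 to -0.15, limma adjusted p = 0.171). It ran from -0.79 to -0.48 over the alternatives, and the unadjusted p was over 0.05 in 2 of 18, without saline mouse 1 and without saline mouse 3. Its promoter is shown for comparison with the Hspa1a and Hspa1b windows, which also hold the short element; the 250 bases lie at chr5:135887669-135887918 on the plus strand (RefSeq, GRCm38.p6), with GAANNTTC in capitals.
Hspb1: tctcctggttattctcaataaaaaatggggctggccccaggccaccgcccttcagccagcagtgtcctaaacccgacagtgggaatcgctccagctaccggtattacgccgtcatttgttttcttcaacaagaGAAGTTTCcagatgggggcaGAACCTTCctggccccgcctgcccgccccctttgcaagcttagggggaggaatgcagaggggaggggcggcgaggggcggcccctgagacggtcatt
It held 2 matches to GAANNTTC, from -117 to -110 and from -97 to -90, and none to the 3-unit element.

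Promoter windows of 250 bases before to 50 after a start were given for 7 of the 10 genes, all but Hspa8, Hsp90aa1 and Hsf1. The 3-unit element, searched on both strands, was in 4 of the 10 windows of these genes, those of Hsph1, Hspd1 and Hspe1, and in 0.603% of all 32851 windows. These 4 windows hold only 2 separate stretches: both Hsph1 windows contain the same match, and the Hspe1 window and 1 of the 2 Hspd1 windows overlap by 285 bases. The other Hspd1 window held no match. At least 1 of the short elements GAANNTTC and TTCNNGAA, which are their own reverse complements and form part of the longer one, was in 7 of 10 windows, with the same overlaps, and in 15.1% of all windows. A match of letters is a description and not a measured binding site.

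**Figure D2:**
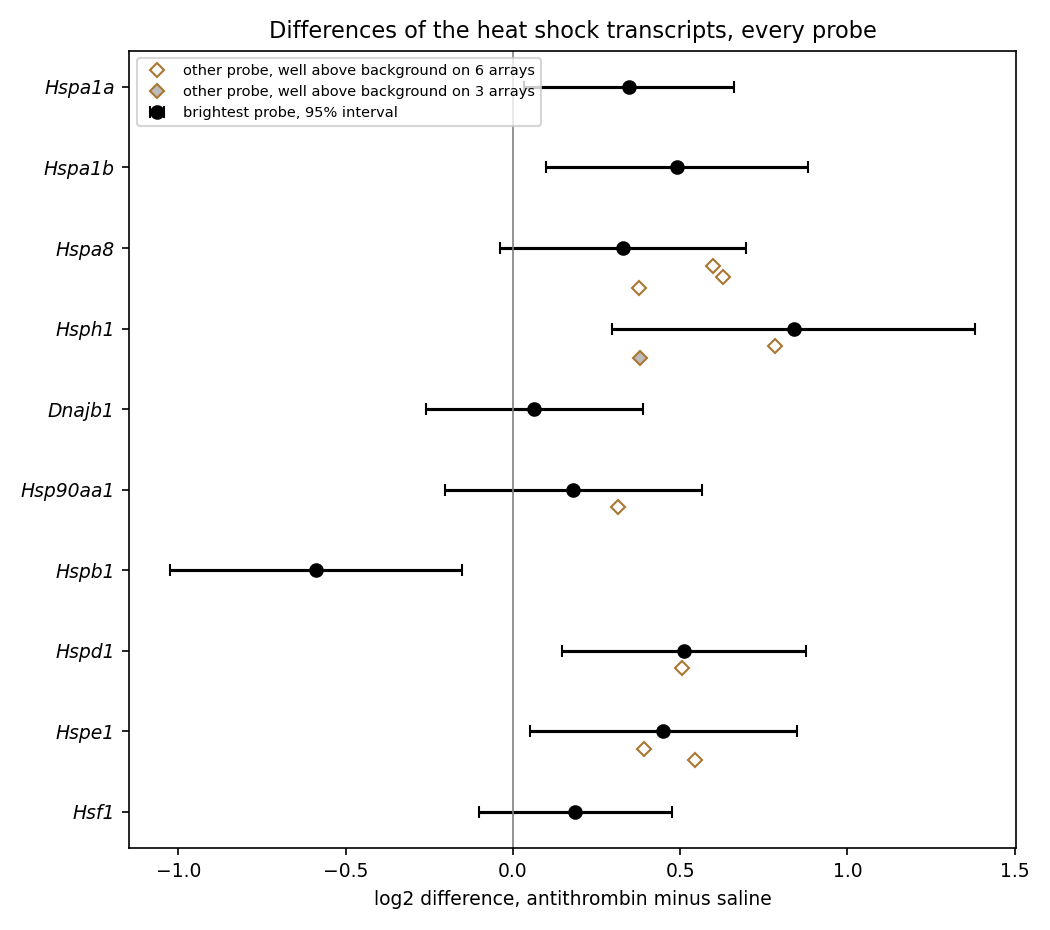
Log2 difference, antithrombin minus saline, of the brightest probe of each heat shock gene with its 95% interval (filled circle), and of every other probe of that gene (diamonds). The intervals of Hspa8, Dnajb1, Hsp90aa1 and Hsf1 include 0, Hspb1 lies below 0, and all other probes lie above 0.

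Most members had the same highest mouse within each group, while the order of the other mice varied. Saline mouse 2 was the highest saline mouse for 8 of the 10 genes, all but Hspa1a and Hspb1, and the lowest for Hspb1. For Hspa1a saline mice 2 and 3 were nearly level, at 1.2103 and 1.2108, and with median scaling saline mouse 2 was not the lowest. With normexp background correction Hspa1a joined the others, and Hspb1 was then the 1 exception. For comparison saline mouse 2 was the highest saline mouse for 36.7% of all genes tested. Antithrombin mouse 3 was the highest antithrombin mouse for 8 of the 10, all but Hspb1 and Hsf1, and again the lowest for Hspb1. It was the highest for 39.7% of all genes. Hspb1 thus ran opposite to most of the others between mice of the same treatment as well as between treatments. The mean over the 10 genes, each less its saline mean, was -0.03, 0.13 and -0.10 log2 in saline mice 1 to 3 and 0.17, 0.22 and 0.45 in antithrombin mice 1 to 3. Among 16595 other named genes well above background on all arrays, those most like Hsph1 over the 6 mice were Cth (Pearson r = 0.998), Pced1a (0.997), B430010I23Rik (0.997), AU022252 (0.996) and Echdc1 (0.996). With 6 points and that many genes, such values are a description only.

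Other chaperone lists had medians on both sides of 0. For comparison with their counts, 21.6% of all genes had an unadjusted p under 0.05 (limma), 8.73% higher and 12.9% lower. In the rest of the cytosolic HSP70 and HSP110 family, 1 of 8 tested genes had an unadjusted p under 0.05 (limma), Hspa2 with a log2 difference of 0.34, while Hspa4 stood at -0.10 and the list median was 0.01. Among 11 tested J-domain partners 0 had such a p (limma, 0 adjusted), the median was -0.0028, and Dnaja1 stood at 0.06. Among 8 regulators of the HSP70 cycle, 1 had such a p, the HSP70-interacting co-chaperone St13 at 0.60. The exchange factor gene Bag1 stood at -0.16, with a list median of -0.06.

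HSP90 co-chaperones leaned upward, with 11 of 12 differences above 0, a median of 0.14 and 1 gene at an unadjusted p under 0.05 (limma). That gene was Stip1, the adaptor that passes clients from HSP70 to HSP90, at 0.51. The constitutive Hsp90ab1 stood at 0.12, and the 1 difference below 0 was -0.50. As a mean log2 score less the saline mean, the list overlapped between the groups. It ranged from -0.12 to 0.15 in saline and from 0.10 to 0.19 in antithrombin mice. In the cytosolic chaperonin TRiC and prefoldin, which fold actin and tubulin, 11 of 14 differences were above 0, with a median of 0.16. The TRiC subunit Cct3 was at 0.39 with an unadjusted p under 0.05, and Cct5 stood at 0.29. The score of this list also overlapped, from -0.10 to 0.13 in saline and from 0.05 to 0.19 in antithrombin mice. Over all genes 43% of differences were above 0. At an unadjusted p under 0.05 (limma) 8.73% of all genes were higher and 12.9% lower.

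Of the other mitochondrial chaperones and proteases, 2 of 14 had an unadjusted p under 0.05 (limma), the protease gene Yme1l1 at 0.51 and the mitochondrial HSP90 gene Trap1 at 0.49. The mitochondrial HSP70 gene Hspa9, which takes in imported proteins before HSP60 folds them, was chosen for mention after its value was seen; it stood at 0.04 with an SE of 0.11, and Dnajc19 at -0.23. The list median was 0.09, against 0.51 and 0.45 for Hspd1 and Hspe1. Among 8 other small heat shock proteins 3 were higher and 1 lower at that p, against 8.73% and 12.9% of all genes. Cryaa differed by 0.87, Hspb11 by 0.40, Hspb3 by 1.39 and Hspb2, named after its value was seen, by -0.31, while Cryab stood at -0.10. Hspb3 was well above background on 2 of 3 saline arrays, so its difference rests in part on signal near background. Several small heat shock proteins are known to be abundant in cardiac and striated muscle. As a mean log2 score, markers of such muscle ranged from -1.05 to 0.76 in saline and from 0.06 to 1.45 in antithrombin mice. Their part in the small heat shock values was not tested.

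Of 5 other tested heat shock factor genes and regulators, all had a negative difference, where 43% of all genes had a difference above 0. Hsf4 stood at -0.54, the 1 gene at an unadjusted p under 0.05 (limma), and the HSF1 inhibitor gene Hsbp1 at -0.14. Of 8 other heat-inducible genes, Serpinh1, the collagen chaperone HSP47, stood at 0.36, again the 1 gene at such a p, and the ubiquitin gene Ubb at -0.19. Over all genes 8.73% were higher and 12.9% lower at such a p. The other heat-inducible genes had 4 differences above 0 and 4 below, with a median of 0.04. Both cold-inducible RNA-binding proteins were lower after antithrombin. Cirbp, which cells make more of when cooled, had log2 signals of 4.77, 4.17 and 5.09 after saline and 3.76, 3.61 and 3.12 after antithrombin, without overlap. Its log2 difference was -1.18 (SE 0.27, limma adjusted p = 0.153). Rbm3 differed by -0.25 (SE 0.10, limma adjusted p = 0.227), also without overlap. These values are from the brightest probe of each gene. With the mean of all probes that passed the filter, the median of the 2 genes moved from -0.71 to -0.40. In that setting 1 of the 2 had an unadjusted p under 0.05 (limma). The groups did not overlap, with antithrombin lower, in 18.1% of all genes. Body temperature is not given in the sources used here.

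**Figure D3:**
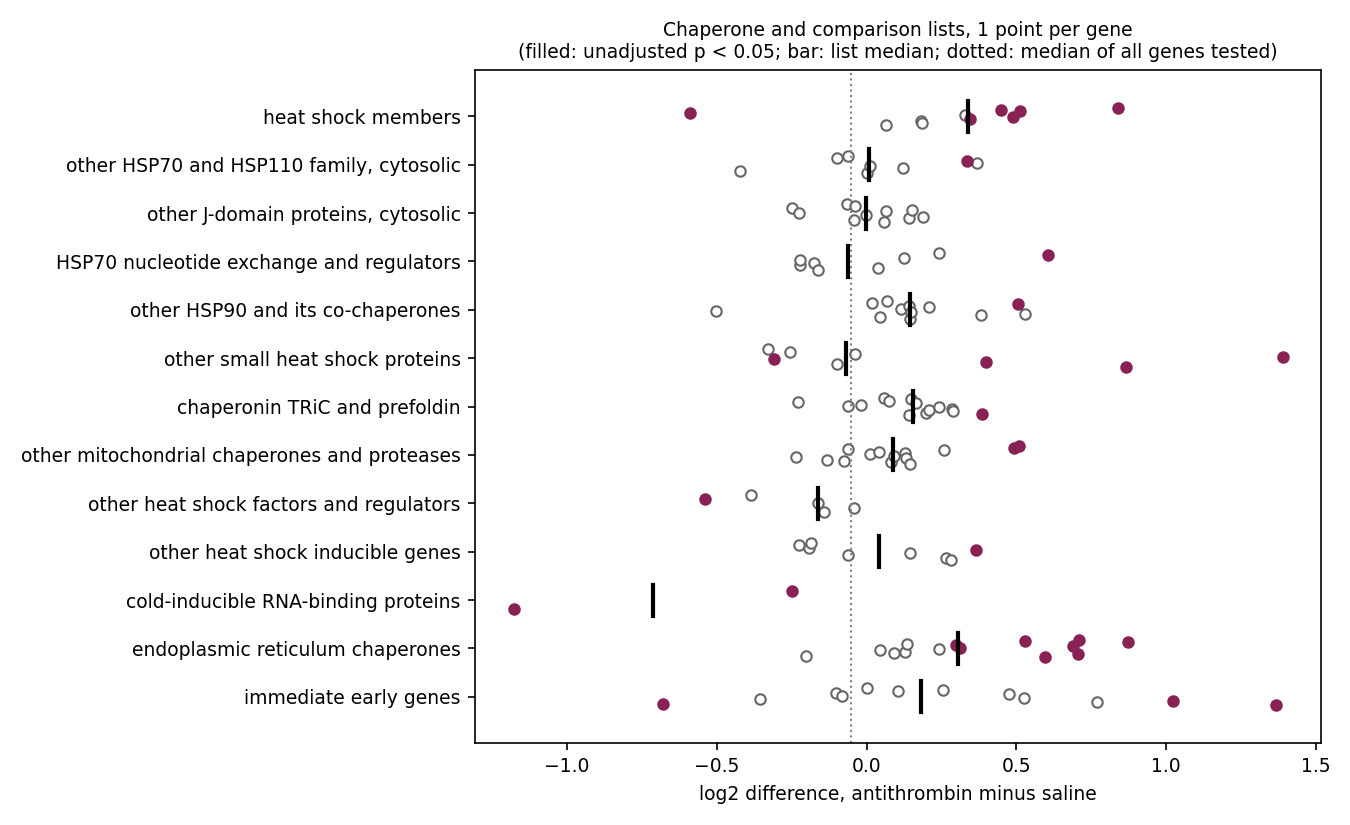
Log2 difference, antithrombin minus saline, for each tested gene of the heat shock members and of 12 other lists; filled points have an unadjusted p under 0.05, black bars are list medians and the dotted line is the median of all genes tested. The members and the endoplasmic reticulum chaperones have medians of 0.34 and 0.30, and both cold-inducible genes lie below 0.

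Chaperones of the endoplasmic reticulum, the compartment with its own stress response, had a median difference close to that of the 10 members. Of 14 tested, 13 had a difference above 0, the median was 0.30, and 8 were higher at an unadjusted p under 0.05 (limma), with 0 past the adjusted threshold, while 8.73% of all genes were higher at such a p. Creld2 differed by 0.71, Pdia4 by 0.87, Pdia6 by 0.53 and the HSP70 of this compartment, Hspa5, by 0.31. The count of 8 became 5 without saline mouse 1, saline mouse 3, antithrombin mouse 1 or antithrombin mouse 3, where the share of all genes at such a p in either direction was 14.6%, 13.0%, 15.6% and 13.6%. Immediate early genes, which tissue handling can also induce, had a median of 0.18, with Atf3 at 1.37, Egr2 at 1.02, Dusp1 at -0.68 and Junb at 0.10. Saline mouse 2 scored 0.46 on them, equal to the highest antithrombin mouse.

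Over the 12 lists together, 115 genes were tested, and at an unadjusted p under 0.05 20 were higher and 5 lower (limma, 0 adjusted). The total of 25 is 21.7% of the genes tested, close to the 21.6% of all genes. By direction it was 17.4% higher and 4.35% lower, against 8.73% and 12.9% of all genes. The endoplasmic reticulum list alone held 8 of the 20 higher genes, while the lists of J-domain partners and of heat shock factors held 0. The 25 became 14 without saline mouse 1, 15 without saline mouse 3 and 15 without antithrombin mouse 3, with 14.6%, 13.0% and 13.6% of all genes at such a p. Without saline mouse 2 they became 38, of which 15 passed the adjusted threshold, with 31.8% of all genes at such a p. The lists share a gene, Hspa4l, which is counted once.

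Marker lists of several cell types also parted the groups. As a mean log2 score less the saline mean, 11 measured neutrophil markers ranged from -0.20 to 0.35 in saline and from 0.54 to 0.63 in antithrombin mice, with 10 of 11 differences above 0. Markers of dividing cells ranged from -0.32 to 0.23 and from 0.52 to 0.78, with 10 of 10 above 0. Smooth muscle and pericyte markers ranged from -0.10 to 0.06 and from 0.49 to 0.74, with 6 of 8 above 0. Of these, Lmod1 was not well above background in any saline mouse and was tested only through the antithrombin arrays; without it the score ranged from -0.12 to 0.07 and from 0.41 to 0.61, with 5 of 7 above 0. Markers of alveolar type 1 cells, the thin gas-exchange epithelium, ranged from -0.10 to 0.13 and from -0.35 to -0.29, with 7 of 7 below 0. Airway club and ciliated cell markers ranged from -0.23 to 0.23 and from 0.28 to 0.38, with 7 of 8 above 0. The endothelial score ranged from -0.0235 to 0.04 and from -0.245 to -0.0286, a very narrow gap, with 9 of 10 differences below 0. Of 10 single endothelial markers, 1 (Car4) was higher without overlap and 0 were lower without overlap. The shares of all genes were 10.7% and 18.1%. Among all genes tested, 43% of differences were above 0. For these 6 lists the groups did not overlap, for endothelium only just, and the part of these lists in the heat shock values was not tested. Scores of monocytes and macrophages, lymphocytes, alveolar type 2 cells, fibroblasts and mesothelium, cardiac and striated muscle, and erythroid cells (2 of 4 markers tested) overlapped.

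**Figure D4:**
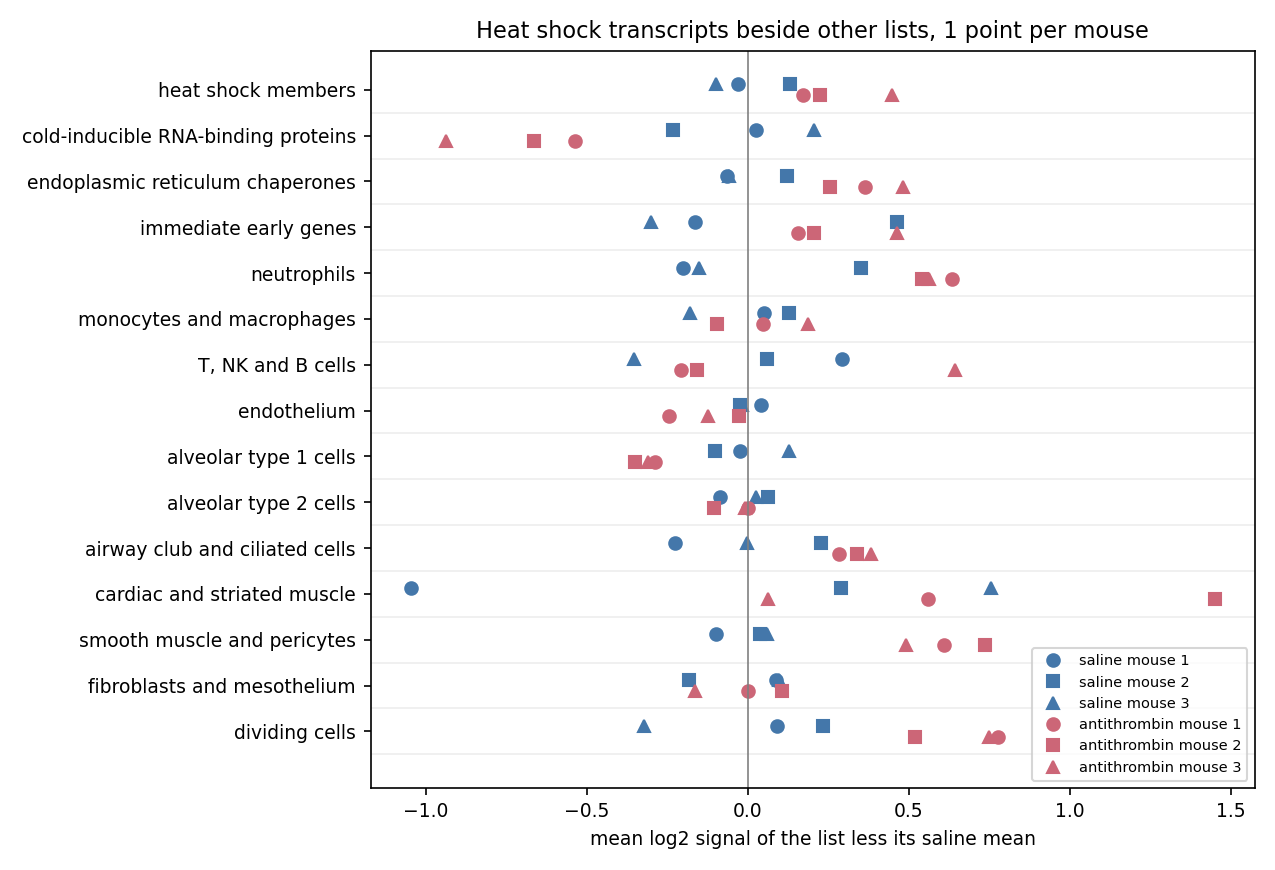
Mean log2 signal of each list, each gene taken less its saline mean, with 1 point per mouse. On the heat shock members saline mouse 2 (0.13) lies next to antithrombin mouse 1 (0.17), and the lists of neutrophils, smooth muscle, dividing cells and endoplasmic reticulum chaperones also part the groups.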

How the data were processed

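Lung RNA of 6 mice was hybridised to 1-colour arrays, 1 per mouse. The deposited scanner files hold spot intensity from Agilent Feature Extraction 10.7.3.1 per the file headers (9.1 per the submitters' processing notes). The deposited value table holds log2 values whose scaling between arrays is unknown; apart from 1 offset for each probe and 1 for each array, 100% of them lay within 0.01 of the scanner values, and column medians ran from -0.0369 to 0.0763. Detection and outlier flags were deposited as other columns.

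Processed signals were taken to log2, and each array was set to 0 at the 75th percentile of its non-control probes. Outlier spots were left out and spots of a probe averaged. Unversioned accessions matched to RefSeq (GRCm38.p6) named 32994 of 56605 probes. The brightest probe stood for a gene, which was tested where that probe was well above background on 3 or more arrays. limma 3.58.1 (R 4.3.3; lmFit, eBayes, two-sided) gave differences, SEs, 95% intervals and p-values, adjusted by Benjamini-Hochberg over 32456 tests, and was tested on simulated data. The number of arrays limits precision: an exact permutation test of 3 against 3 cannot go below 0.1.

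The members, the 12 chaperone and comparison lists and the 12 marker lists were chosen with earlier results of these data known. From each of the former 12, the text names up to 3 genes with the smallest unadjusted p under 0.05 and the gene with the highest mean signal; the text marks exceptions. Genes like Hsph1 were the 5 with the highest Pearson r. Motifs were searched with Python 3.11.15, and figures drawn with matplotlib 3.10.9.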

Additional observations from a re-analysis of the deposited data

How the results depend on the processing

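Alternatives covered background correction, scaling, the filter on dim probes, the choice of probe, the deposited value table, the variance model, array weights, blocks and leaving out each mouse. Normexp on the mean pixel signal was not run, because the files used here hold the median. The number of members past the adjusted threshold was 0 in every analysis but one and ran from 0 to 2 when a mouse was left out; members at an unadjusted p under 0.05 ran from 2 to 7 when a mouse was left out (6 with all mice) and from 4 to 7 otherwise, and the median difference from 0.26 to 0.41 over all alternatives. The count over the chaperone and comparison lists (25) ran from 14 to 38 when a mouse was left out. The Dnajb1 difference was -0.049 without antithrombin mouse 3 and ran up to 0.12 when another mouse was left out; no other member changed sign. Mouse numbers recur in both groups, and the sample titles state no shared litter or day for equal numbers. Deviations from group means correlated across genes at -0.01, -0.16 and -0.28 for equal numbers, and at up to 0.28 for unequal ones. With 3 mice per group the deviations sum to 0, so these correlations constrain each other and cannot decide whether mice were paired. With the replicate block, 4 members and 15 genes of the chaperone and comparison lists had an unadjusted p under 0.05 (limma). The share of all genes was 15.6% (21.6% without the block), and no member passed the adjustment.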
